A study of Mus musculus with 48 samples.

Results

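Fuel use in the mouse heart was examined through 42 genes of fatty acid oxidation and glucose metabolism, all 42 of which had a row among the 54752 genes of the deposited expression matrix. The genes were chosen by name: 4 of the carnitine shuttle, 9 of fatty acid activation and beta oxidation, 4 transcriptional regulators, 5 set down together at the pyruvate gate (the kinases Pdk1, Pdk2 and Pdk4, the dehydrogenase subunit Pdha1 and Ucp3, a mitochondrial uncoupling protein that is no part of that step), 4 of glucose uptake and phosphorylation, 14 of glycolysis and lactate exchange, and 2 of ketone body use. Ensembl identifiers were matched to mouse symbols. In heart muscle cells relative to heart blood endothelium, 26 of the 42 genes were higher, against 10.8% of all genes tested. A further 9 were lower, against 64.1%, and this split moved with the scaling used. Population and batch cannot be told apart in that comparison. After infusion of angiotensin II together with VEGFC, the glucose transporter Slc2a4 and the kinase Pdk4 were lower in the heart muscle cell preparations than in controls, a pair of calls that depended on the libraries and the scaling used. The other 11 treatment contrasts had no gene of the group past the threshold.

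The heart obtains most of its energy by burning fatty acids in mitochondria. Carnitine palmitoyltransferases load activated fatty acids onto carnitine for entry into the mitochondrion, and the enzymes of beta oxidation then shorten them step by step to acetyl-CoA. Glucose enters through GLUT transporters, is trapped by hexokinase and is split to pyruvate by glycolysis. The pyruvate dehydrogenase complex, held back by the PDK kinases, decides whether that pyruvate is burned or turned into lactate. Endothelial cells are known to rely largely on glycolysis, and lymphatic endothelium is also known to need fatty acid oxidation through CPT1A. Many of these enzymes exist in a muscle or heart form and a more widely expressed form that are encoded by different genes.

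RNA was sequenced from heart lymphatic endothelial cells (heart LECs), diaphragm LECs, heart blood endothelial cells (heart BECs) and heart cardiomyocytes, with 12 libraries for each population from 13 mice in all. All mice were of the Prox1-eGFP line on the C57BL/6 strain, in which a reporter inserted at the Prox1 gene marks lymphatic endothelium, and the controls carried it too. Each population comprised 4 ctrl libraries, 5 angII libraries from mice infused by minipump with angiotensin II, a peptide hormone that raises blood pressure, and 3 angII+VEGFC libraries from mice given angiotensin II with a form of VEGF-C selective for the lymphatic receptor VEGFR3. The pumps of the ctrl and angII mice carried albumin in its place, and no group received VEGFC alone. The labels give the ages of the mice as 8 to 16 in months, whereas the study's methods give the age of such mice in weeks, and the unit was not settled here. Endothelial cells were sorted by surface markers and the reporter, whereas cardiomyocytes were spun down without sorting. All cardiomyocyte libraries were in batch 3 and all endothelial libraries in batches 1 and 2, so that population and batch cannot be told apart in comparisons of cardiomyocytes with endothelium. Levels are given as TPM, the share of all transcripts scaled to a fixed total and adjusted for transcript length, and the sequencing depth is not known from these values.

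The sorting labels were reflected in the markers. Prox1, which specifies lymphatic fate, was 97.6 to 230 TPM in heart LECs and 175 to 315 TPM in diaphragm LECs, and no more than 5.72 TPM in heart BECs and 6.18 TPM in cardiomyocytes. Myh6, the cardiac myosin heavy chain, was 1004 to 3914 TPM in cardiomyocyte preparations and 0.0433 to 78.5 TPM in endothelial libraries. Cardiomyocyte preparations also held fibroblast markers at a summed 2371 to 6450 TPM and pericyte and smooth muscle markers at 962 to 1965 TPM. Blood endothelial markers summed to 1736 to 3002 TPM there and to 10380 to 20066 TPM in heart BECs. The part of endothelial RNA in comparisons of these populations was not tested. Red blood cell markers were 8953 to 24892 TPM in cardiomyocyte preparations and 5220 to 31325 TPM in heart BECs. Mitochondrially encoded genes took 15.9% to 31.0% of the TPM of cardiomyocyte preparations. In such bulk samples, fewer cells of a type and less RNA per cell cannot be told apart. Several libraries stood apart. The angII cardiomyocyte library of mouse 14 had the highest summed cardiomyocyte markers (22646 TPM) and skeletal muscle markers (163 TPM) of its population. The angII+VEGFC cardiomyocyte library of mouse 8 had 19306 genes at 1 TPM or more, against 13020 to 15816 in the other cardiomyocyte libraries, and the lowest cardiomyocyte markers (8720 TPM). The angII diaphragm LEC library of mouse 4 had the lowest lymphatic markers of its population (22654 TPM).

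Promoter sequence is shown for 3 genes on which the results turn: Pdk4, which was lower in treated cardiomyocyte preparations, and Eno3 and Ldhb, the muscle enolase and the heart subunit of lactate dehydrogenase, which separated cardiomyocytes from endothelium. The windows hold the 250 bases before the RefSeq start on build GRCm38.p6, printed 5′ to 3′ on the strand of the gene, at chr6:5496279-5496528 (minus strand), chr11:70656926-70657175 (plus strand) and chr6:142507958-142508207 (minus strand). Capitals mark AGGTCA, the core letters recognised by PPAR and estrogen-related receptors, on either strand, and the Pdk4 window holds no match.
Pdk4: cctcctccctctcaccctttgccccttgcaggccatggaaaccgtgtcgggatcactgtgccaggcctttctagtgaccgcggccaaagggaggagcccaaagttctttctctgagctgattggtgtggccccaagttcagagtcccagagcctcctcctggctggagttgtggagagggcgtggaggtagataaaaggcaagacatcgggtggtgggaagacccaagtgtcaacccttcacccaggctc
Eno3: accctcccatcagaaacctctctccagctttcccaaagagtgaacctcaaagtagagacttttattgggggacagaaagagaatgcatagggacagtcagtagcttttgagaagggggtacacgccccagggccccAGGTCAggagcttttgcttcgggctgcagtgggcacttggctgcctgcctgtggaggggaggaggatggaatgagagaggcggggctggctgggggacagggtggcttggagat
Ldhb: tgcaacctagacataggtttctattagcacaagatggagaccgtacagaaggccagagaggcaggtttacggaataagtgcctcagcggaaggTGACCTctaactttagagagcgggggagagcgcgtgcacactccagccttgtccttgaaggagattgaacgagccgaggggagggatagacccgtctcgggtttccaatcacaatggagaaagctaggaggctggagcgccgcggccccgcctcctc
AGGTCA on either strand was present in the windows of 11 of the 40 genes that had one (27.5%) and of 4260 of 27025 genes in the table (15.8%). The 11 were Acadm, Acadvl, Aldoa, Cpt1a, Echs1, Eno1, Eno3, Ldhb, Pfkm, Pkm and Ucp3. The longer TCAAGGTCA, which contains those letters, was in 0 of the 40 genes and 114 of all genes (0.422%), and CACGTG, the core of an E box, was in 4 of 40 (10%) and 1854 of all genes (6.86%). Slc2a4 and Cpt1b had no entry.

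Summed over the 42 genes, the level was 4634 to 9496 TPM in cardiomyocyte preparations and 4188 to 5887 TPM in heart BECs. It was 3864 to 5612 TPM in LECs of the heart and 4046 to 5034 TPM in those of the diaphragm. Of the 42 genes, 40 reached 1 TPM in every cardiomyocyte library, 34 in every heart BEC library, 29 in every diaphragm LEC library and 28 in every heart LEC library. Glycolytic enzymes had high levels in each population. Aldoa, which encodes aldolase, averaged 1137 ± 270 TPM in cardiomyocytes, 744 ± 112 TPM in heart BECs, and 974 ± 131 and 1042 ± 160 TPM in the LECs of heart and diaphragm (SD, n = 12 each, all treatments together). Gapdh averaged 1131 ± 334, 738 ± 79.1, 876 ± 113 and 838 ± 91.0 TPM in the same order. Ucp3, a mitochondrial uncoupling protein of muscle, was low in endothelium, at a mean of 0.409 TPM in BECs, and of 0.594 and 0.444 TPM in the LECs of heart and diaphragm. The heart LEC ctrl library of mouse 9 listed Acads at 0, Slc25a20 at 0.0717 and Oxct1 at 0.136 TPM, although every other heart LEC library had Slc25a20 at 12.5 TPM or more and Oxct1 at 25.1 TPM or more.

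**Figure D1:**
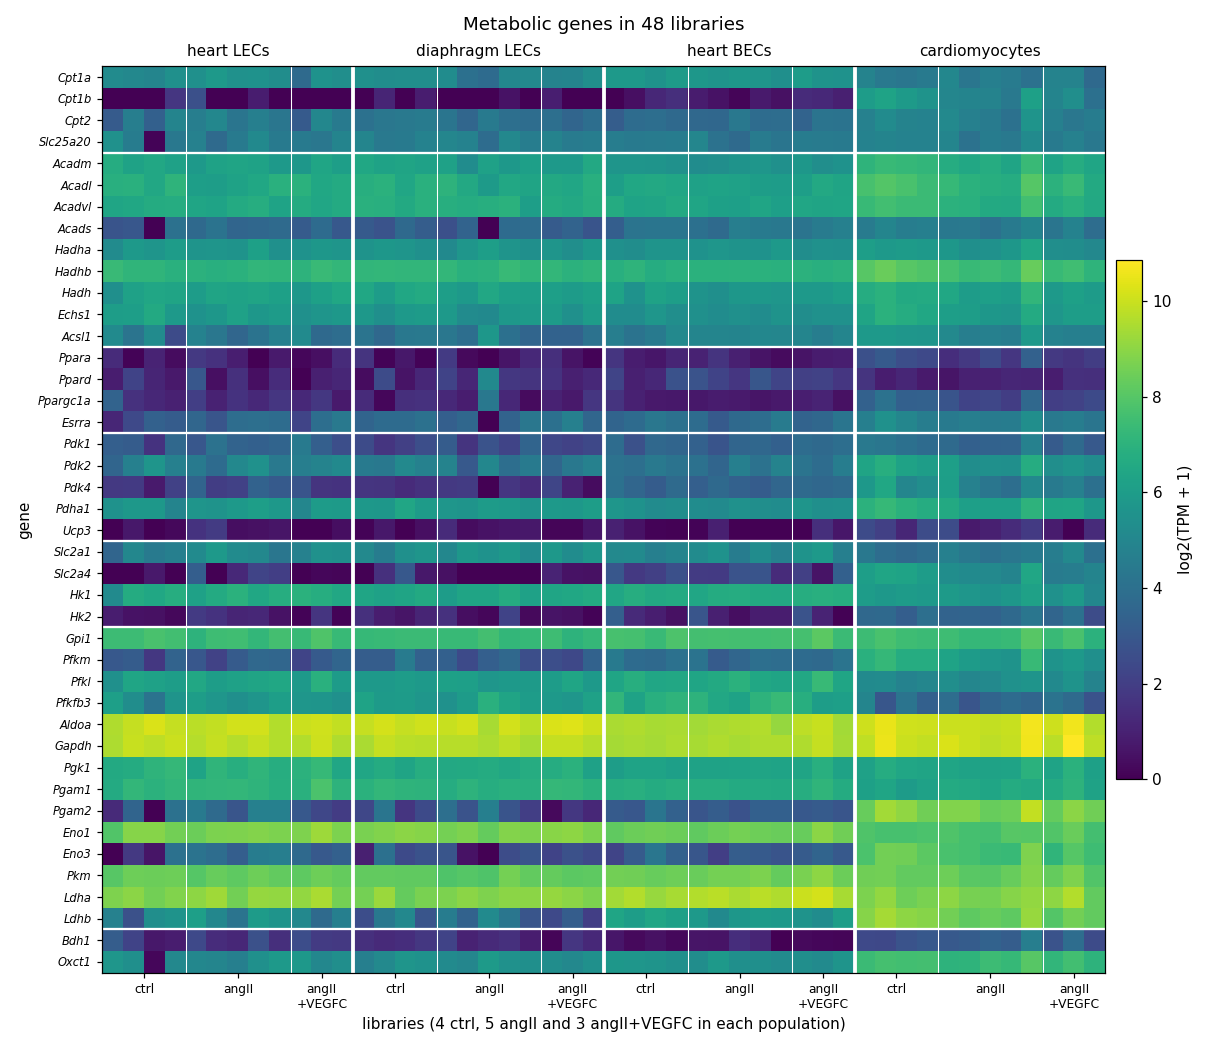
Level of each of the 42 genes (rows, log2 of TPM + 1, grouped by role) in each of the 48 libraries (columns, by population and treatment). Cpt1b, Slc2a4, Pgam2 and Eno3 are lower in the 36 endothelial libraries than in the 12 cardiomyocyte libraries.

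Muscle and heart isozymes separated the populations. Within a library, the muscle or heart form was set against the more widely expressed form as its share of the pair's summed TPM, in which a scaling factor of the whole library cancels. Pgam2, the muscle phosphoglycerate mutase, made up 76.3% to 90.8% of Pgam2 plus Pgam1 in cardiomyocyte preparations (median 82.3%), and at most 18.5% in any endothelial library. Cpt1b, the muscle carnitine palmitoyltransferase, made up 48.1% to 82.0% of Cpt1b plus Cpt1a in cardiomyocytes and at most 11.0% in endothelium, with a median of 0% in heart LECs and diaphragm LECs and 1.42% in heart BECs. Eno3, the muscle enolase, held 36.0% to 64.2% of Eno3 plus Eno1 in cardiomyocytes and at most 5.37% in endothelium. Ldhb, the lactate dehydrogenase subunit of the heart, held 32.2% to 59.6% of its pair with Ldha against at most 13.0%, and the muscle phosphofructokinase Pfkm held 51.8% to 80.1% of its pair with Pfkl against at most 25.8%. The cardiomyocyte range lay above all 36 endothelial libraries for all 7 pairs.

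Hk2 reached 12.0% to 21.1% of Hk2 plus Hk1 in cardiomyocytes and at most 9.30% in endothelium. For the insulin-responsive transporter Slc2a4 (GLUT4) beside the basal transporter Slc2a1 (GLUT1), the cardiomyocyte share ran from 41.0% to 86.9% and the heart BEC share from 0.821% to 26.7%. Heart BECs had a median share of 9.20%, diaphragm LECs of 0.951% and heart LECs of 0.305%. Among the endothelial populations, the share of Ldhb had a median of 6.98% in BECs, and of 5.99% and 1.78% in the LECs of heart and diaphragm. These shares are descriptions and carry no test.

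**Figure D2:**
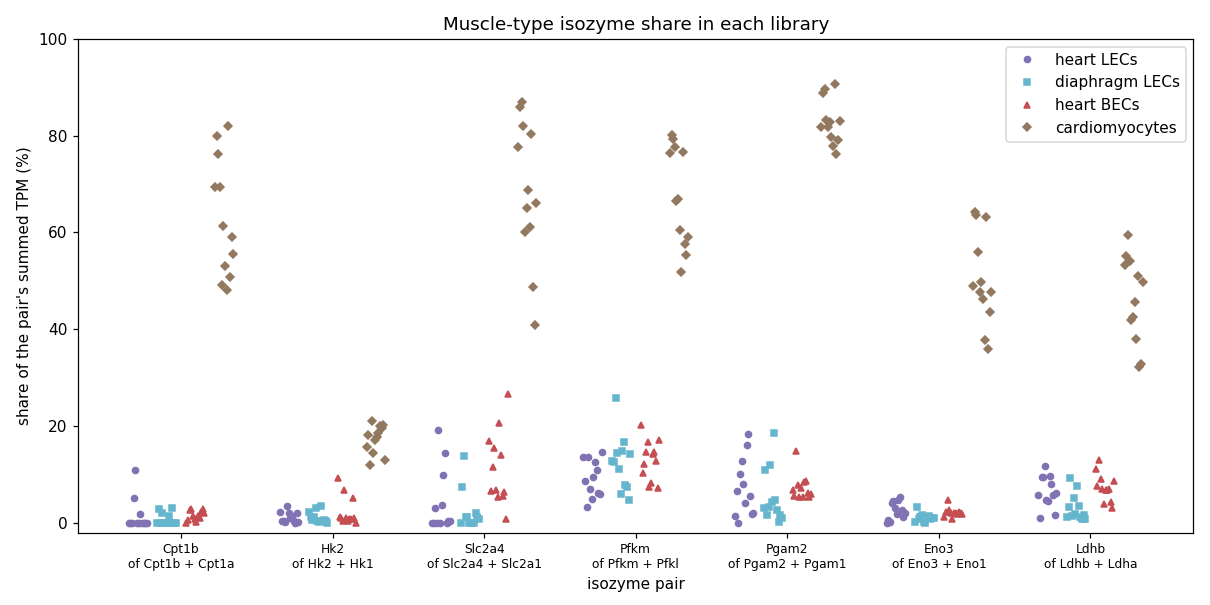
Share of the pair's summed TPM held by the muscle or heart isozyme (y axis, %) for 7 isozyme pairs (x axis), with 1 point for each of 12 libraries of each population. For every pair the cardiomyocyte points lie above all endothelial points, from 76.3% to 90.8% for Pgam2 and from 12.0% to 21.1% for Hk2.

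Cardiomyocyte preparations were compared with heart BECs by limma on log2(TPM + 1), giving differences with their standard error (SE) and Benjamini-Hochberg adjusted p over all genes tested. Both populations came from the same mice, but this fit did not pair the libraries by mouse. A fit with the mouse as a replicate block is given as an alternative. Of the 42 genes, 26 were higher, against 10.8% of the 23213 genes tested, and 9 were lower, against 64.1%. The median difference was 0.69 over the 42 genes and -0.61 over all genes. The genes higher in cardiomyocytes included 7 of 9 genes of fatty acid activation and beta oxidation, 2 of 4 of the carnitine shuttle, 3 of 4 regulators, 4 of 5 in the pyruvate gate group (Ucp3 among them) and both of ketone use. Ppargc1a, Ucp3 and Bdh1, counted here, reached 1 TPM in fewer than 3 heart BEC libraries. They passed the filter on low values through cardiomyocytes, where they were high. In glycolysis, 6 of 14 were higher and 5 were lower. The scaling moved this split: 34 were higher and 4 lower after quantile normalization (against 20.9% and 29.4% of all genes), with a median of all genes of -0.14, and 31 were higher and 8 lower when mitochondrially encoded genes were left out of the TPM (against 13.8% and 49.3%), with a median of -0.43.

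The carnitine shuttle differed in its isozyme. Cpt1b was 15.2 to 78.9 TPM in cardiomyocytes and 0 to 1.75 TPM in heart BECs, with no overlap (difference 4.42, SE 0.20, adjusted p = 4.67e-15). Cpt1a, the form found in most tissues, was lower instead, at 22.2 ± 5.81 TPM against 51.7 ± 6.48 TPM (difference -1.22, SE 0.13, adjusted p = 1.36e-08). Cpt2, which unloads carnitine inside the mitochondrion, was higher by 0.93 (adjusted p = 9.25e-06), whereas the carrier Slc25a20 differed by 0.22 (adjusted p = 0.102). Among the acyl-CoA dehydrogenases that open each round of beta oxidation, Acadm was 77.6 to 162 TPM against 37.4 to 52.1 TPM, and Acadl and Acadvl were higher by 0.99 and 0.64. Acads, for short chains, and Hadha, a subunit of the trifunctional protein, differed by 0.24 and 0.13 and did not pass (adjusted p = 0.127 and 0.234). Acsl1, which activates long-chain fatty acids, was higher (difference 0.38, SE 0.13, adjusted p = 0.0120).

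Regulators moved in different directions. Ppargc1a, the PGC-1α coactivator of mitochondrial genes, averaged 6.96 ± 4.26 TPM in cardiomyocytes and 0.840 ± 0.439 TPM in heart BECs. It reached 1 TPM in 1 ctrl, 0 angII and 1 angII+VEGFC heart BEC libraries, so that no test of it is given. Ppara, the fatty acid receptor of the heart, and Esrra, an estrogen-related receptor, were higher as well, by 1.29 and 0.87 (SE 0.20 and 0.16, adjusted p = 5.31e-06 and 3.58e-05). Ppard was lower, at 1.18 ± 0.481 TPM against 3.54 ± 1.76 TPM (difference -0.92, SE 0.20, adjusted p = 2.47e-04). Among the kinases that switch off pyruvate dehydrogenase, Pdk4 was 14.2 to 86.6 TPM against 7.87 to 15.7 TPM (difference 1.36, SE 0.17, adjusted p = 1.95e-07). Pdk2 was higher by 1.67, and Pdk1 differed by 0.20 (adjusted p = 0.282). Ucp3 had a mean of 2.24 TPM in cardiomyocytes against 0.409 TPM, and no test of it is given for the same reason as for Ppargc1a.

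Among the 42 genes, Pgam2 and Eno3 of glycolysis had the largest differences. Pgam2 was 314 to 922 TPM in cardiomyocytes and 5.60 to 17.4 TPM in heart BECs (difference 5.59, SE 0.17, adjusted p = 7.83e-18). Eno3, whose promoter is printed above, was 135 to 439 TPM against 3.01 to 18.3 TPM (difference 4.77, SE 0.21, adjusted p = 1.82e-15), and neither gene overlapped between the populations. Slc2a4 was 22.2 to 86.2 TPM against 0.470 to 9.07 TPM (difference 3.26, SE 0.25, adjusted p = 4.91e-11). Ldhb, Pfkm and Hk2 were higher by 2.72, 2.35 and 2.23 (SE 0.13, 0.16 and 0.33, adjusted p = 5.55e-15, 4.17e-12 and 1.98e-06). Their partners Hk1, Slc2a1, Ldha, Eno1 and Pfkl were lower, with differences of -0.92, -0.84, -0.79, -0.62 and -1.42. Pgam1 was lower too (difference -0.31, SE 0.08, adjusted p = 0.00180), but its difference turned to 0.45 after quantile normalization and to 0.06 without mitochondrially encoded genes. Pfkfb3, which makes the activator of phosphofructokinase, was 64.5 to 159 TPM in heart BECs and 5.58 to 29.4 TPM in cardiomyocytes (difference -3.03, SE 0.21, adjusted p = 8.12e-12). Of the ketone genes, Oxct1 was higher by 1.91 in cardiomyocytes. Bdh1 averaged 8.52 TPM in cardiomyocytes and reached 1 TPM in 0 ctrl, 2 angII and 0 angII+VEGFC heart BEC libraries. It passed the filter through cardiomyocytes, where it was high, so that no test of it is given.

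Heart LECs were set against heart BECs in the same way, asking how the lymphatic and blood endothelium of one organ differ. Of the 42 genes, 9 were higher in LECs, against 11.0% of the 29402 genes tested, and 11 were lower, against 10.1%. The higher genes were Acadm, Acadl, Echs1, Ppargc1a, Aldoa, Gapdh, Pgk1, Pgam1 and Bdh1. The lower genes were Cpt1a, Acads, Ppard, Pdk4, Slc2a4, Pfkm, Pfkl, Pfkfb3, Pkm, Ldha and Ldhb. The dehydrogenases Acadm and Acadl and the hydratase Echs1 were thus higher in LECs, whereas the dehydrogenase Acads and the carnitine loading enzyme Cpt1a were lower. With the mouse as a replicate block, 10 were higher, against 11.8% of all genes, and 12 lower, against 10.3%: Acadl no longer passed, and Esrra, Pdk2 and Eno1 did.

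Pdk4 was 0.718 to 10.5 TPM in heart LECs (median 3.11) and 7.87 to 15.7 TPM in heart BECs (difference -1.44, SE 0.22, adjusted p = 2.73e-05). Ldha, the subunit favouring lactate production, averaged 503 ± 107 TPM against 797 ± 161 TPM (difference -0.69, SE 0.11, adjusted p = 2.73e-05), and Ldhb was lower as well (difference -1.04, SE 0.27, adjusted p = 0.00648). Pfkfb3 averaged 49.2 ± 14.1 TPM against 108 ± 31.6 TPM (difference -1.10, SE 0.19, adjusted p = 8.76e-05). Slc2a4 was low in both, at 0 to 8.59 TPM in LECs and 0.470 to 9.07 TPM in BECs (difference -1.49, SE 0.35, adjusted p = 0.00286). Acads and Pfkm differed by -1.06 and -0.92 (SE 0.29 and 0.22, adjusted p = 0.0103 and 0.00315). Cpt1a averaged 39.0 ± 10.7 TPM against 51.7 ± 6.48 TPM, with overlapping libraries (difference -0.52, SE 0.15, adjusted p = 0.0179), and Pfkl differed by -0.41 (adjusted p = 0.0375). Over the 24 fits that each left out 1 library, 16 to 21 of the 42 genes passed. Pfkl passed in 13 of them, Ppard in 21, Pgam1 in 22 and Cpt1a in 23.

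In the other direction, Acadm was 53.2 to 104 TPM in heart LECs against 37.4 to 52.1 TPM in heart BECs, with no overlap (difference 0.66, SE 0.11, adjusted p = 3.63e-05). Bdh1, which interconverts ketone bodies, averaged 3.14 ± 2.25 TPM against 0.465 ± 0.489 TPM. It reached 1 TPM in 0 ctrl, 2 angII and 0 angII+VEGFC heart BEC libraries and passed the filter through heart LECs, where it was high. No test of it is given, although it is among the genes counted as higher. Pgk1, Echs1 and Pgam1 were higher by 0.54, 0.45 and 0.33 (SE 0.11, 0.10 and 0.10, adjusted p = 8.62e-04, 0.00145 and 0.0193). Ppargc1a was counted as higher too, where 1 ctrl LEC library at 9.88 TPM stood above the other 11 at 0.714 to 3.05 TPM. It reached 1 TPM in 1 ctrl, 0 angII and 1 angII+VEGFC heart BEC libraries, and no test of it is given either. Ppard was lower (difference -0.94, SE 0.29, adjusted p = 0.0231). Ppara, Esrra, Acsl1 and Ucp3 differed by -0.13, -0.60, -0.51 and 0.01, with adjusted p of 0.121 or more. The remaining isozymes Cpt1b, Hk1, Hk2, Slc2a1, Pgam2, Eno1 and Eno3 differed by -0.53 (Hk2) to 0.24 (Eno1), with adjusted p of 0.12 or more.

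Between heart and diaphragm LECs, 1 of the 42 genes was higher in the heart, against 1.65% of the 31319 genes tested, and 0 were lower, against 1.30%. The gene was Ldhb, at 5.52 to 68.9 TPM in heart LECs and 3.07 to 35.2 TPM in diaphragm LECs (difference 1.38, SE 0.36, adjusted p = 0.0329). The ranges overlapped, and the call was lost after quantile normalization and without a filter on low values. Of the 24 fits that left out 1 library, 12 had 0 of the 42 genes past the threshold, and the fit without the heart LEC ctrl library of mouse 9 had Pdk1 in place of Ldhb. Cardiomyocyte markers also differed between the organs, with a summed median of 227 TPM in ctrl heart LECs and 30.8 TPM in ctrl diaphragm LECs, and their part in the Ldhb difference was not tested. The other 13 isozymes differed by -0.50 (Slc2a1) to 0.77 (Eno3) with adjusted p of 0.207 or more. Ppara, Ppard, Ppargc1a, Esrra, Pdk4, Ucp3 and Acsl1 differed by -0.43 (Esrra) to 0.77 (Pdk4) with adjusted p of 0.261 or more.

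The treatment comparisons asked how chronic angiotensin II infusion, alone or with VEGFC, altered these genes within each population. In cardiomyocyte preparations all 42 passed the filter on low values. For angII+VEGFC against ctrl, 2 of 42 passed an adjusted p of 0.05, against 0.663% of the 15691 genes tested, and both were lower. At an unadjusted p under 0.05, 21 of 42 were lower, against 4.70% of all genes, and 2 were higher (Slc2a1 and Pgam1), against 8.15%. The median change was -0.51 over the 42 genes and 0.11 over all genes. In 20 of the 42 genes every angII+VEGFC library lay below every ctrl library, against 4.78% of all genes. By their labels, whose unit is in doubt, the 3 angII+VEGFC mice were aged 8, 8 and 15 and the 4 ctrl mice 8, 9, 16 and 16, and age was a covariate.

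Slc2a4, the GLUT4 transporter at chr11:69942539-69948188 (minus strand), was 66.9, 83.5, 78.8 and 62.8 TPM in the ctrl libraries, 38.5, 36.2, 34.0, 28.9 and 86.2 TPM in the angII libraries, and 22.2, 23.6 and 29.3 TPM in the angII+VEGFC libraries. Every angII+VEGFC library was below every ctrl library, and 4 of the 5 angII libraries were as well. The change for angII+VEGFC against ctrl was -1.55 (SE 0.30, adjusted p = 0.0368). Pdk4, at chr6:5483351-5496309 (minus strand), was 53.9, 86.6, 30.7 and 39.8 TPM in ctrl, 66.5, 26.3, 18.4, 14.2 and 32.4 TPM in angII and 20.4, 26.5 and 14.9 TPM in angII+VEGFC. Its groups did not overlap between angII+VEGFC and ctrl either (change -1.50, SE 0.32, adjusted p = 0.0481). In the same fit the change of Pdk4 with age was -0.13 log2 units per step of 1 in the labelled age and did not pass (SE 0.0356, unadjusted p = 0.00198, adjusted p = 1.00).

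These 2 calls depended on single libraries. Over the 7 fits that each left out 1 of these libraries, 0 to 5 of the 42 genes passed: 0 when any 1 of the 4 ctrl libraries, or the angII+VEGFC library of mouse 2 or of mouse 6, was left out, and 5 without the library of mouse 8 (Slc2a4, Pdk4 and Ppargc1a lower, Slc2a1 and Pgam1 higher, where 0.865% of all genes passed as lower and 4.85% as higher). Of the 42 genes, 12 passed, all lower, when mitochondrially encoded genes were left out of the TPM, against 0.673% of all genes. After quantile normalization 15 passed, all lower, against 1.23%, and the median of all genes was 0.00652. Fibroblast markers moved with the groups, at a summed 2371 to 3452 TPM in ctrl, 3924 to 5537 TPM in angII and 3307 to 6450 TPM in angII+VEGFC. The 6 macrophage markers did so as well, at 507 to 655, 744 to 1496 and 764 to 1678 TPM, with every ctrl library below all the others, and the 10 skeletal muscle markers at 6.42 to 12.4, 7.45 to 163 and 19.7 to 74.3 TPM. Cardiomyocyte markers summed to 12670 to 18619, 10803 to 22646 and 8720 to 16199 TPM. With each library scaled to its cardiomyocyte markers, a scale chosen after the data were seen, Slc2a4 still passed (change -1.31, adjusted p = 0.0441) and Pdk4 did not (change -1.26, adjusted p = 0.0945), while the median was -0.27 over the 42 genes and 0.35 over all genes. The part of fibroblast, macrophage and skeletal muscle RNA in these changes was not tested.

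**Figure D3:**
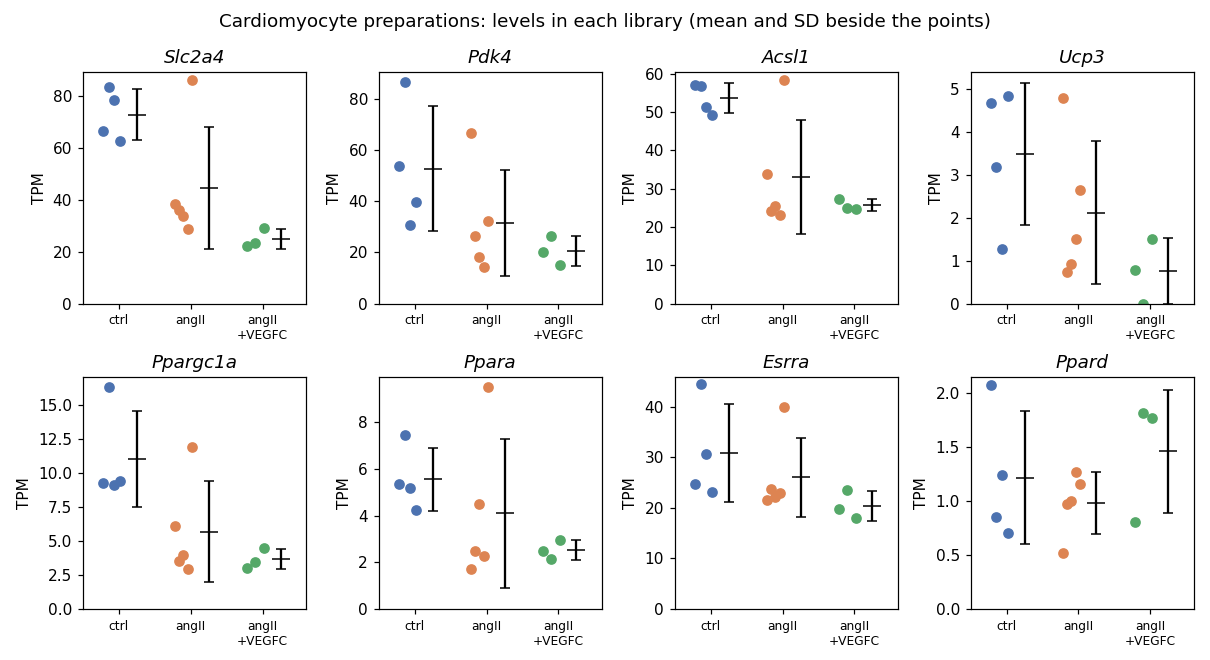
Level in TPM (y axis) of Slc2a4, Pdk4 and other genes of the group in each cardiomyocyte library, by treatment (x axis: 4 ctrl, 5 angII, 3 angII+VEGFC), with the mean and SD as a black bar beside the points. Slc2a4 lies at 62.8 to 83.5 TPM in ctrl and 22.2 to 29.3 TPM in angII+VEGFC, and 1 angII library lies at 86.2 TPM.

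Several regulators and fatty acid genes had lower values without passing the threshold. Ppargc1a was 9.26, 16.3, 9.11 and 9.41 TPM in ctrl, 6.13, 3.54, 3.95, 2.91 and 11.9 TPM in angII and 3.03, 3.48 and 4.49 TPM in angII+VEGFC (change for angII+VEGFC against ctrl -1.45, SE 0.34, adjusted p = 0.0694). Acsl1 was 57.0, 56.8, 51.4 and 49.3 TPM in ctrl, 33.9, 24.2, 25.4, 23.1 and 58.5 TPM in angII and 27.4, 25.1 and 24.8 TPM in angII+VEGFC (change -1.07, SE 0.27, adjusted p = 0.0946). The ctrl and angII+VEGFC libraries of both genes were apart. Ucp3 was 4.66, 3.17, 1.27 and 4.83 TPM in ctrl and 0.779, 0 and 1.52 TPM in angII+VEGFC (change -1.49, SE 0.44, adjusted p = 0.146). Ppara averaged 5.55 ± 1.34 TPM in ctrl and 2.52 ± 0.423 TPM in angII+VEGFC (SD, 4 and 3 libraries), with a fitted change of -0.87 (SE 0.39, adjusted p = 0.360). Esrra and Ppard had changes of -0.57 and 0.13 (adjusted p = 0.385 and 0.901).

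Across the roles, the fitted changes for angII+VEGFC against ctrl were below 0 for all 9 genes of fatty acid activation and beta oxidation (median -0.76), for all 4 of the carnitine shuttle (median -0.41) and for all 5 in the pyruvate gate group, Ucp3 included (median -1.06), whereas 9 of 14 were below 0 in glycolysis (median -0.12). In beta oxidation, Hadhb was 236 to 332 TPM in ctrl and 135 to 183 TPM in angII+VEGFC and Acadm 134 to 159 and 77.6 to 105 TPM, in both cases without overlap (adjusted p = 0.154 and 0.147). Within the carnitine shuttle, the changes of Cpt1b and Cpt1a were -1.26 and -0.05 (adjusted p = 0.157 and 0.962). Pfkm, Ldhb and Eno3, named for their isozyme pairs, had changes of -1.36, -0.87 and -0.76, and their partners Pfkl, Ldha and Eno1 of 0.10, 0.18 and 0.20, with adjusted p of 0.0774 or more.

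The share of the muscle or heart isozyme within pairs is described beside these changes, with no test. Slc2a4 held 77.6% to 86.9% of its pair in ctrl, 60.2% to 80.4% in angII and 41.0% to 66.1% in angII+VEGFC. Pfkm held 76.5% to 80.1%, 51.8% to 76.7% and 55.4% to 59.1% in the same order. Ldhb held 53.2% to 59.6%, 38.0% to 51.0% and 32.2% to 49.7%, so that its ctrl range lay above both others. Cpt1b held 69.4% to 79.9%, 48.1% to 82.0% and 50.8% to 59.0%. Hk2 had overlapping ranges of 12.0% to 21.1%, 14.5% to 20.1% and 13.1% to 20.3%.

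**Figure D4:**
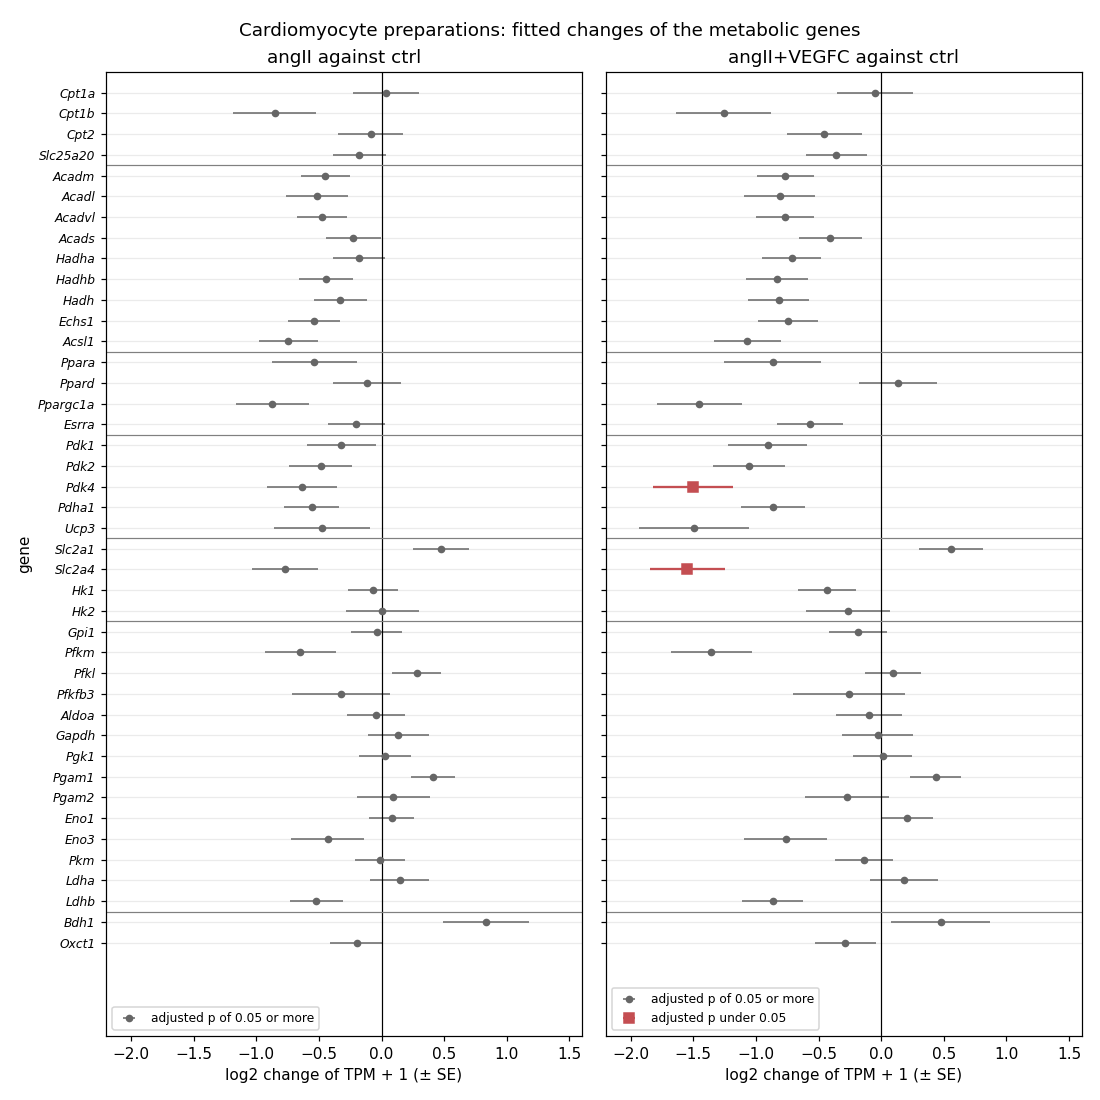
Fitted log2 change of TPM + 1 (x axis) with its SE for the 42 genes (y axis) in cardiomyocyte preparations, with angII against ctrl in the left panel and angII+VEGFC against ctrl in the right panel. Slc2a4 (-1.55) and Pdk4 (-1.50) in angII+VEGFC have an adjusted p under 0.05, and the fitted values of all 9 genes of fatty acid activation and beta oxidation lie below 0 in both panels.

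For angII against ctrl, 0 of 42 passed in cardiomyocytes, against 0.0892% of all genes. At an unadjusted p under 0.05, 11 were lower, against 1.85% of all genes, and 2 were higher (Bdh1 and Pgam1), against 8.00%. The median change was -0.21 over the 42 genes and 0.12 over all genes. The smallest p belonged to Acsl1 (change -0.74, SE 0.24, adjusted p = 0.264), Ppargc1a (-0.87, SE 0.29, adjusted p = 0.303) and Slc2a4 (-0.77, SE 0.26, adjusted p = 0.303). Pdk4, Ucp3, Ppara, Esrra and Ppard had changes of -0.64, -0.48, -0.54, -0.20 and -0.11, with adjusted p of 0.471 or more. Bdh1 was 4.21, 4.09, 5.84 and 6.89 TPM in ctrl and 7.18, 7.91, 9.74, 8.20 and 24.2 TPM in angII, without overlap (change 0.83, SE 0.34, adjusted p = 0.436).

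In the angII library of mouse 14, mitochondrially encoded genes took 15.9% of the TPM, the lowest share of any cardiomyocyte library. The other angII libraries had 22.56% to 29.95%, and the part of this share in the counts below was not tested. The library of mouse 14 was the highest of the 5 angII libraries in 34 of the 42 genes, and in 41 of 42 it lay inside or above the ctrl range. Without it 2 genes passed, both lower: Slc2a4 (change -1.03, SE 0.16, adjusted p = 0.0460) and Acsl1 (-0.97, SE 0.16, adjusted p = 0.0475), against 0.0579% of the 15549 genes tested. In that fit the median change was -0.35 over the 42 genes and 0.11 over all genes. The 4 remaining angII libraries all lay below every ctrl library in 18 of the 42 genes, against 2.98% of all genes. With all 5 libraries this held for 0 of the 42, against 0.574% of all genes, and 2 lay above every ctrl library, against 5.10%. The library of mouse 14 stands out by the values of these same genes, so that leaving it out favours lower values among them. The fit and the count without it are therefore descriptions only.

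For angII+VEGFC against angII, 0 of 42 passed, against 0% of all genes. At an unadjusted p under 0.05, 5 were lower, against 1.56%, and 0 were higher, against 0.848%. Pdk4, Slc2a4 and Ucp3 had the smallest p, with changes of -0.86, -0.78 and -1.02 (SE 0.32, 0.30 and 0.44, adjusted p = 1.00 for each), and their groups overlapped. The changes of Ppargc1a, Acsl1, Ppara, Esrra and Ppard were -0.58, -0.33, -0.33, -0.37 and 0.25. The 2 contrasts with ctrl share the 4 ctrl libraries, and the 2 contrasts with angII share the 5 angII libraries.

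In heart LECs 40 of the 42 genes passed the filter on low values. For angII against ctrl 0 passed the threshold, against 0.0261% of 26803 genes, and 7 had an unadjusted p under 0.05, against 10.9%. For angII+VEGFC against angII these counts were 0 and 3, against 0% and 10.8%, and for angII+VEGFC against ctrl they were 0 and 1, against 0% and 4.94%. The 3 genes with the smallest p under angII, Eno3, Pgam2 and Slc2a4, are muscle genes that were low in endothelium. Eno3 was 0, 2.48, 0.523 and 15.8 TPM in ctrl, 16.7, 13.8, 8.47, 22.6 and 23.9 TPM in angII and 11.9, 7.13 and 8.94 TPM in angII+VEGFC (change for angII against ctrl 2.51, SE 0.58, adjusted p = 0.168). Pgam2 was 1.48, 10.3, 0 and 15.6 TPM in ctrl, 20.4, 12.4, 6.21, 25.6 and 25.2 TPM in angII and 6.93, 3.98 and 2.77 TPM in angII+VEGFC (change 2.10, SE 0.63, adjusted p = 0.264). Slc2a4 was listed at 0, 0, 0.663 and 0 TPM in ctrl and at 8.59, 0, 1.35, 3.64 and 3.06 TPM in angII. It reached 1 TPM in 4 libraries, all angII, and so passed the filter through the group in which it was high, for which reason no test of it is given, although it is among the 7 and the 3 genes counted above. The ctrl and angII ranges overlapped for all 3.

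Within batch 1 the differences for angII against ctrl were 3.71 for Eno3 and 3.34 for Pgam2 (3 against 2 libraries), and within batch 2 they were 1.29 and 0.46 (2 against 2). Cardiomyocyte and blood endothelial markers had their highest sums in the angII group as well. This did not hold for all markers of other cells. Macrophage markers reached 247 TPM in angII+VEGFC and 158 TPM in angII, and adipocyte markers 3.82 TPM in ctrl and 3.55 TPM in angII. The median of the fibroblast sum was 1340 TPM in ctrl and 955 TPM in angII. The 9 cardiomyocyte markers, all above 0 in every group, summed to 168 to 470 TPM in ctrl, 201 to 1165 TPM in angII and 199 to 377 TPM in angII+VEGFC, and the 8 blood endothelial markers to 1409 to 2541, 2492 to 6426 and 1715 to 2086 TPM. Over the 12 heart LEC libraries, the cardiomyocyte sum correlated with Pgam2 at r = 0.43, with Eno3 at r = 0.51 and with Slc2a4 at r = 0.50. In the angII group the summed cardiomyocyte markers were 4.78% of their level in cardiomyocyte preparations. At that ratio, cardiomyocyte levels correspond to 22.1 TPM of Pgam2, 11.9 TPM of Eno3 and 2.36 TPM of Slc2a4 in heart LECs, beside measured means of 18.0, 17.1 and 3.33 TPM. At the ratio of Myh6 alone (1.31%) they correspond to 6.05, 3.27 and 0.647 TPM. The ctrl group, at a marker ratio of 1.93%, corresponds to 8.89, 4.80 and 0.950 TPM, beside measured means of 6.85, 4.71 and 0.166 TPM. With the summed cardiomyocyte markers of each library as a covariate, a fit chosen after the data were seen, the changes under angII were 2.42 for Eno3 and 1.96 for Pgam2 (adjusted p = 0.407 and 0.463).

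**Figure D5:**
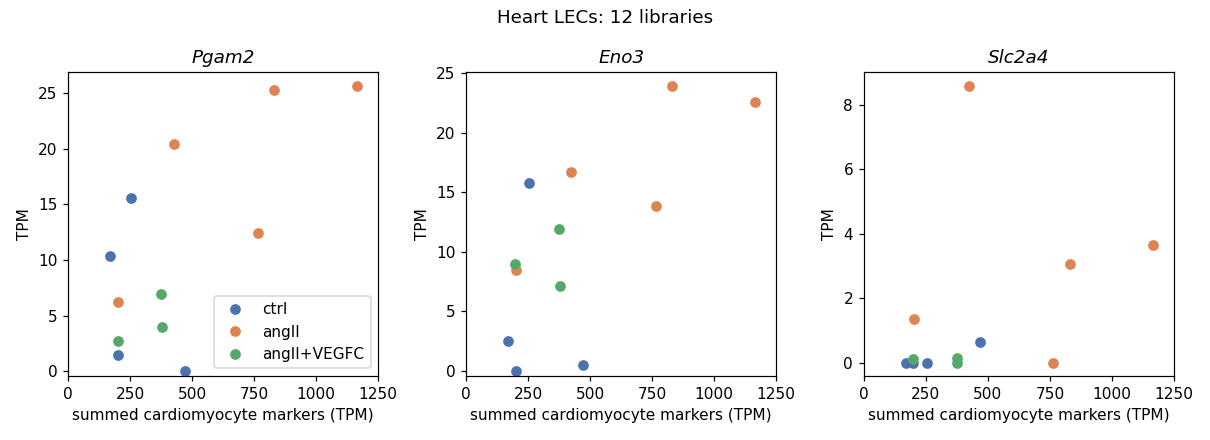
Level in TPM (y axes) of Pgam2, Eno3 and Slc2a4 in the 12 heart LEC libraries against the summed TPM of 9 cardiomyocyte markers in the same library (x axes), coloured by treatment. The 3 libraries with the highest marker sums, all angII, have Pgam2 at 12.4 to 25.6 TPM.

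When angII+VEGFC was set against angII in heart LECs, Pgam2 had a change of -2.27 (SE 0.74, adjusted p = 0.413) and Cpt1a of -0.81 (SE 0.38, adjusted p = 0.458). Cpt1a was 36.6, 32.6, 30.1 and 42.5 TPM in ctrl, 42.2, 55.9, 43.7, 45.6 and 39.1 TPM in angII and 12.5, 45.9 and 40.7 TPM in angII+VEGFC, where 1 library lay far below the other two. The Cpt1a difference was 0.14 within batch 1, which holds 1 angII+VEGFC library, and -1.12 within batch 2. Against ctrl, the changes of Eno3, Hk1 and Esrra were 1.64, 0.54 and 1.07, with adjusted p of 0.915 or more. They were 2.72, 0.95 and 1.63 within batch 1 (1 against 2 libraries) and 0.57, -0.00708 and 0.55 within batch 2 (2 against 2). Leaving out 1 library gave 1.24 to 2.31 for Eno3, 0.20 to 1.00 for Hk1 and 0.49 to 2.14 for Esrra.

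In diaphragm LECs, where 40 of the 42 genes passed the filter, 0 passed the threshold in any of the 3 contrasts, against 0% of 23839 genes in each. At an unadjusted p under 0.05 there were 2 for angII against ctrl, against 15.3% of all genes, 2 for angII+VEGFC against angII, against 8.78%, and 1 for angII+VEGFC against ctrl, against 1.32%. Pgam2 was 3.95, 17.4, 2.19 and 4.43 TPM in ctrl, 14.6, 5.80, 24.5, 6.03 and 3.06 TPM in angII and 0.221, 2.44 and 1.28 TPM in angII+VEGFC. All angII+VEGFC libraries were below all angII libraries (change -2.68, SE 0.52, adjusted p = 0.567), with a difference of -1.77 within batch 1 and -2.05 within batch 2. Against ctrl the change was -2.10 (SE 0.54, adjusted p = 1.00), and within batches -0.21 and -2.58. The 9 cardiomyocyte markers summed to 5.45 to 373 TPM in ctrl, 18.9 to 457 TPM in angII and 7.04 to 25.9 TPM in angII+VEGFC, where 1 of the 9 was at 0. Over the 12 libraries, which share their treatment groups and batches, Pgam2 followed this sum with r = 0.83 and rho = 0.80, against r = 0.0765 and rho = -0.0909 for the skeletal muscle sum. With the cardiomyocyte sum as a covariate, chosen after the data were seen, the changes of Pgam2 were -1.82 against angII and -1.62 against ctrl (adjusted p = 1.00 and 1.00). The 10 skeletal muscle markers summed to 47.1 to 209 TPM in ctrl, 35.4 to 109 TPM in angII and 36.8 to 67.2 TPM in angII+VEGFC, and their part was not tested. Eno3 and Slc2a4 followed the skeletal muscle sum (r = 0.68 and 0.72) and not the cardiomyocyte sum (r = -0.0553 and 0.0228). Cpt1a was 42.3, 39.2, 40.1 and 39.8 TPM in ctrl and 37.5, 14.9, 12.9, 31.8 and 33.2 TPM in angII, without overlap (change -0.74, SE 0.31, adjusted p = 0.307).

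Of the other genes with the smallest p in diaphragm LECs, Acadm had a change of -0.43 under angII (adjusted p = 0.334). Slc2a4, among the genes counted at the unadjusted threshold under angII, reached 1 TPM in 2 ctrl, 0 angII and 1 angII+VEGFC libraries, so that the filter itself favoured a lower value in angII, and no test of it is given. Ldhb was 4.87 to 32.3 TPM in ctrl, 6.23 to 35.2 TPM in angII and 3.07 to 8.28 TPM in angII+VEGFC, with a change of -1.48 for angII+VEGFC against angII (adjusted p = 0.567) and of -1.17 against ctrl (adjusted p = 1.00). It followed the summed cardiomyocyte markers with r = 0.75 and rho = 0.88 over the 12 libraries. With those markers as a covariate the first change turned to 0.0346 and the second was -0.34. Esrra had a change of 1.38 for angII+VEGFC against angII (adjusted p = 0.575), which was 2.19 within batch 1, 0.24 within batch 2 and 0.94 with the marker covariate. Slc2a1 had a change of 0.51 against ctrl (adjusted p = 1.00). The library of mouse 4 had Ppard at 34.7 TPM and Ppargc1a at 19.6 TPM and listed Esrra and Acads at 0, whereas the other 11 libraries had Ppard at 4.67 TPM or less and Ppargc1a at 2.27 TPM or less.

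In heart BECs 39 of the 42 genes passed the filter, and 0 passed the threshold in any contrast, against 0% of 21281 genes in each. At an unadjusted p under 0.05 there were 2 for angII against ctrl, against 5.40% of all genes, 2 for angII+VEGFC against angII, against 2.59%, and 3 for angII+VEGFC against ctrl, against 5.51%. Ldhb was 82.7, 65.5, 86.2 and 70.4 TPM in ctrl, 58.1, 34.8, 52.1, 60.7 and 57.1 TPM in angII and 46.6, 37.9 and 66.7 TPM in angII+VEGFC. All angII libraries were below all ctrl libraries (change -0.56, SE 0.20, adjusted p = 0.841), with a difference of -0.59 within batch 1 and -0.55 within batch 2. The summed cardiomyocyte markers were 222.3 to 490.5 TPM in ctrl and 157.2 to 234.6 TPM in angII. Ldhb correlated with that sum at r = 0.50 over the 12 libraries, and the part of the markers was not tested. Hadh, a dehydrogenase of beta oxidation, and Acsl1 had changes of -0.45 and 0.33 under angII (adjusted p = 0.809 and 0.942). When angII+VEGFC was set against angII, the changes of Pdk1 and Hadh were 0.69 and 0.42 (adjusted p = 1.00 for each). Cpt1b, the next by p, reached 1 TPM in 2 ctrl, 0 angII and 2 angII+VEGFC libraries, and no test of it is given for the same reason as for Slc2a4 in diaphragm LECs. Against ctrl the changes of Ldhb, Ldha and Pgk1 were -0.60, 0.45 and 0.33 (adjusted p of 0.865 or more). Over the 9 endothelial contrasts, Ppara, Ppard, Ppargc1a, Esrra, Pdk4, Ucp3 and Acsl1 had changes of -1.49 to 1.38 where tested, with adjusted p of 0.390 or more.

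Whether a treatment acted differently in 2 populations was tested as an interaction for 3 pairs of populations and 2 contrasts. For heart LECs against heart BECs, 0 of 42 passed for angII against ctrl, against 0.0102% of 29402 genes, with a smallest adjusted p of 0.254, and 0 for angII+VEGFC against angII, against 0% (smallest 0.584). For cardiomyocytes against heart BECs, 0 passed in either contrast, against 0% of 23213 genes (smallest 0.540 and 1.00). For heart LECs against diaphragm LECs, 0 passed in either, against 0% of 31319 genes (smallest 0.767 and 1.00). At an unadjusted p under 0.05 these 6 counts were 6, 1, 4, 4, 4 and 2, against 8.61%, 7.87%, 5.63%, 2.77%, 5.99% and 2.77% of all genes. For these 2 contrasts, the changes in cardiomyocytes are thus not shown to differ from those in heart BECs. The contrast of angII+VEGFC against ctrl was not tested as an interaction.

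Other genes of the same pathways, taken from lists set down by name, were counted alongside. In the 12 treatment contrasts, 0 of the 28 further genes of fatty acid oxidation, 27 of glucose metabolism, 10 of the pyruvate dehydrogenase complex and 16 regulators passed the adjusted threshold. Over all genes, 0% to 0.663% passed in these contrasts. For angII+VEGFC against ctrl in cardiomyocytes, 11 of the 28 tested fatty acid oxidation genes were lower at an unadjusted p under 0.05 and 1 was higher (median change -0.47). Over all genes, 4.70% were lower and 8.15% higher at that threshold. In the same contrast 3 of 9 pyruvate dehydrogenase genes were lower and 0 higher (median -0.57), 1 of 21 glucose genes was lower and 2 higher (median 0.06), and 1 of 15 regulators was lower and 0 higher (median -0.19). In cardiomyocytes against heart BECs, 11 further fatty acid oxidation genes passed as higher and 11 as lower (28 tested), and 9 and 10 of glucose metabolism (22 tested). The counts were 4 and 2 for the pyruvate dehydrogenase complex (10 tested) and 3 and 10 for the regulators (15 tested). Over all genes, 10.8% passed as higher and 64.1% as lower. The mitochondrial pyruvate carrier genes Mpc1 (1.70) and Mpc2 (1.53) and the complex subunit Dlat (0.88) were higher, as were Acot13 (1.84), Gpd1 (2.27) and Ldhd (1.57). Pparg (-2.32), Gpd2 (-2.01), Mef2a (-1.64), Nrf1 (-1.62) and Acsl5 (-1.61) were lower.

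In heart LECs against heart BECs, 5 further fatty acid oxidation genes were higher and 4 lower (27 tested), and 3 and 5 of glucose metabolism (22 tested). The counts were 1 and 0 for the pyruvate dehydrogenase complex (10 tested) and 2 and 6 for the regulators (14 tested). Over all genes, 11.0% passed as higher and 10.1% as lower. The lactate transporter Slc16a1 (difference -1.81, SE 0.23, adjusted p = 1.44e-06) and the glucose transporter Slc2a3 (-1.48, SE 0.24, adjusted p = 4.20e-05) were lower in LECs, as were Gpd2 (-1.23), Acacb (-1.65), Acot1 (-1.27), Mlxip (-1.28) and Mef2d (-1.19), whereas Esrrg (1.10) and Mpc2 (0.50) were higher. Pdhx and Pdp2 differed by -0.56 and 0.38 and did not pass. Between heart and diaphragm LECs, Decr1 was higher in the heart (difference 1.05, SE 0.27, adjusted p = 0.0267) and the coactivator Ppargc1b was lower (-1.32, SE 0.32, adjusted p = 0.0161). Over all genes, 1.65% passed there as higher and 1.30% as lower. Among glucose genes 0 passed there, where Slc16a1 had a difference of -0.79 (adjusted p = 0.161), and among the pyruvate dehydrogenase genes 0 passed as well, with Pdp1 at -0.42 (adjusted p = 0.367). Further genes of these lists that did not pass included Acot1 (0.41), Slc2a3 (-0.63), Pdpr (-0.28), Pdp2 (0.26), Esrrg (0.83) and Pparg (-0.53).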

How the data were processed

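RNA of 48 libraries was amplified by Smart-Seq, and the authors aligned reads with STAR 2.5.3a and quantified genes with Salmon 0.12.0 on GRCm38, per the submitters' processing notes. The authors deposited TPM values per gene, with no counts, so that depth and counting error are unknown. All 48 value columns matched a labelled sample. For Aldoa, which had 2 rows, the higher was used. Genes that reached 1 TPM in 3 or more libraries were tested. For treatment contrasts this was counted over all 12 libraries of the population, the group outside the contrast included. For population comparisons it was counted over both populations. The test was limma 3.58.1 (R 4.3.3) on log2(TPM + 1) with a mean-variance trend. Covariates were age and, for endothelium, batch. Benjamini-Hochberg adjustment was made over all genes tested, at a threshold of 0.05. Fold changes on this scale understate changes of low genes. Libraries from different mice were the replicates within a population. The fits were also run on simulated data with known changes. The simulated noise was independent between libraries, with no batch, shared mouse or mixture of cells, so that this run does not cover their effects. Populations share mice by their labels. Deviations of libraries from the same mouse had a mean correlation of 0.112, 0.0723 and 0.0634 in the 3 population comparisons, and the mouse was used as a replicate block in an alternative fit. Other alternatives were the pseudocount, the filter, quantile normalization, TPM without mitochondrially encoded genes, the covariates and leaving out each library. Named genes were those past the threshold, or else the 3 with the smallest p, in each treatment contrast; the 7 isozyme pairs and the 5 largest called differences in each direction between populations; and 7 regulators and targets throughout. Genes named beyond this rule (among them Bdh1, Pgam1, Hadhb and Acadm in cardiomyocytes) were chosen after their values were seen. Single values of some genes of the further pathway lists are not reported here. The genes and lists were chosen with earlier results of these data known.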

Additional observations from a re-analysis of the deposited data

Results flagged for a closer look

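In 7 of the 56 groups of 4 or 5 libraries examined, 1 library lay far from the others of its group by Dixon's test; chance alone marks about 1 in 20 groups. Eno3 was 15.8 TPM in the ctrl library of mouse 11 in heart LECs, with the others of its group at 0 to 2.48 TPM. Slc2a4 was 0.663 TPM in the ctrl library of mouse 9 in heart LECs, with the others of its group at 0. Slc2a4 was 0.403 TPM in the angII library of mouse 3 in diaphragm LECs, with the others of its group at 0. In both of these Slc2a4 groups any single value above 0 would have been marked, so that the rate of 1 in 20 does not apply to them. Pgam2 was 17.4 TPM in the ctrl library of mouse 5 in diaphragm LECs, with the others of its group at 2.19 to 4.43 TPM. Ppargc1a was 16.3 TPM in the ctrl library of mouse 5 in cardiomyocytes, with the others of its group at 9.11 to 9.41 TPM. Slc2a4 was 86.2 TPM in the angII library of mouse 14 in cardiomyocytes, with the others of its group at 28.9 to 38.5 TPM. Esrra was 40.0 TPM in the angII library of mouse 14 in cardiomyocytes, with the others of its group at 21.5 to 23.8 TPM. These are values only, and no cause was tested.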

How the results depend on the processing

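In cardiomyocytes for angII+VEGFC against ctrl, the count of genes past the threshold was 2 as reported and also 2 with only these groups in the fit. It became 1 with a pseudocount of 0.1, 0 without a filter on low values, 15 after quantile normalization, 12 without mitochondrially encoded genes, 1 without covariates, 4 with the count of detected genes in the model and 1 when scaled to cardiomyocyte markers, and the cause was not tested. Over all genes, 0.663% passed in the reported fit. As lower, 1.23% passed after quantile normalization and 0.673% without mitochondrially encoded genes. The scaling to cardiomyocyte markers and, for endothelium, the covariate of cardiomyocyte markers were chosen after seeing the data. Leaving out 1 library at a time gave 0 to 5 genes there, 0 to 2 for angII against ctrl in cardiomyocytes, 0 to 1 between heart and diaphragm LECs and 0 to 1 for the interaction of heart LECs against heart BECs under angII, where Eno3 passed without the ctrl heart LEC library of mouse 11. Between heart and diaphragm LECs the count was 0 without a filter and 0 after quantile normalization. With the mouse as a replicate block, which pairs libraries of the same animal, 22 of the 42 genes passed between heart LECs and heart BECs. There 6491 of all 29402 genes passed. Between cardiomyocytes and heart BECs 36 passed, with Gpi1 added, against 17084 of all 23213 genes. Between heart and diaphragm LECs 1 passed, against 1248 of all 31319 genes. Without the block these counts were 20, 35 and 1, against 6176, 17374 and 924 of all genes. The 6 interactions had 0 of the 42 genes with and without the block. Some small differences changed sign. Under the block the difference between heart and diaphragm LECs was -0.0280 for Hk2 and 0.0193 for Slc2a4, with the pseudocount of 0.1 it was -0.197 for Ucp3, -0.123 for Cpt1b and -0.00426 for Hk2, and after quantile normalization it was -0.135 for Ppara, -0.0624 for Ppargc1a, -0.188 for Ucp3, -0.0855 for Cpt1b and -0.228 for Hk2. Quantile normalization also gave -0.0381 for Ucp3 between heart LECs and heart BECs and 0.452 for Pgam1 between cardiomyocytes and heart BECs, which was 0.0571 without mitochondrially encoded genes. With cardiomyocyte markers as a covariate, Ldhb for angII+VEGFC against angII in diaphragm LECs was 0.0346. Leaving out 1 library gave ranges that crossed 0 for Ucp3 (-0.0705 to 0.0666) and Eno3 (-0.322 to 0.0875) between heart LECs and heart BECs, for Hk2 (-0.153 to 0.177), Slc2a4 (-0.192 to 0.184), Ppara (-0.0752 to 0.277), Ucp3 (-0.00054 to 0.0897) and Pgam1 (-0.0160 to 0.152) between heart and diaphragm LECs, and for Ppard in cardiomyocytes (-0.242 to 0.0954 for angII against ctrl, -0.0297 to 0.556 for angII+VEGFC against angII and -0.0140 to 0.409 for angII+VEGFC against ctrl). Among single genes over all alternatives, 71 values kept their direction but lost the threshold and 14 passed it. Depth could not be read from TPM, so that counting error is not known, and groups of 3 to 5 libraries limit the precision.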
